A study of Homo sapiens with 2 samples.

Results

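The 9 genes described here encode ubiquitin ligases or ligase subunits: ZNRF1, ZNRF2, ZNRF3 and RNF43, and the CTLH complex genes RMND5A, RMND5B, MAEA, RANBP9 and WDR26. They are 9 of the 19775 genes that the array annotation names on its own, and 25 probe sets were assigned to exactly 1 of them. The list was selected on the difference between these arrays, with the low signals of ZNRF1, ZNRF2 and RMND5A after miR-99a already known, so the differences are given as a description and no test supports them. The cells were C4-2, a castration-resistant human prostate cancer line derived from LNCaP, transfected with a lipid reagent and harvested after 48 h. One culture received the microRNA miR-99a. The control culture received si-GL2, by its name an siRNA against firefly luciferase. Each group holds 1 array, so every value is a single measurement with no replicate error.

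A ubiquitin ligase attaches ubiquitin to chosen proteins and thereby marks them for degradation or sorting. ZNRF1 and ZNRF2 are closely related RING ligases anchored to intracellular membranes. ZNRF3 and RNF43 are transmembrane RING ligases that clear Frizzled Wnt receptors from the cell surface and so dampen Wnt signalling; R-spondins, acting through LGR receptors, remove them. The CTLH complex, the human counterpart of the yeast GID ligase, carries its RING activity on a pair formed by MAEA and either RMND5A or RMND5B. A microRNA lowers mRNAs that pair with its seed, the bases at positions 2 to 8 from its 5′ end.

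The mature miR-99a sequence is shown because it is the agent that separates the arrays. It stands beside the relatives that carry the same seed. The labels do not name the arm that was transfected; the 5p arm, the one usually meant by miR-99a, is given. Sequences are from RefSeq (GRCh38.p14), 5′ to 3′, with the seed in capitals.
miR-99a-5p: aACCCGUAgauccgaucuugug
miR-100-5p: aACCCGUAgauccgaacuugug
miR-99b-5p: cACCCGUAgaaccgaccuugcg
The miR-99a-5p bases lie at chr21:16539101-16539122 on the plus strand. Counted from the 5′ end, with the base of miR-99a-5p first, miR-100-5p differs by U16A and miR-99b-5p by A1C, U11A, U16C and U21C, so all differences lie outside the seed. Transcript sequences of the 9 genes were not used here, and seed matches in them were not examined.

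Pairs of signals are given as the miR-99a array against the si-GL2 array. A difference below is always log2(signal + 16), miR-99a minus si-GL2. The added 16 shrinks the difference of dim probe sets. A probe set was called lower or higher past 1.5-fold, which is 0.585 on this scale, and expressed when its mean log2 value reached the median of all probe sets, a signal of 47.2. Of the 25 member probe sets, 20 were expressed, and each of these 20 exceeded the limit on both arrays. Signals of different probe sets depend on their probes and are not set against each other.

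By their brightest probe sets, 3 of the 9 genes were lower past 1.5-fold and 0 were higher, beside 2.90% lower and 1.21% higher of 12218 expressed genes. Nothing is read from that contrast, since the genes were chosen with it known. By probe set, 4 of the 20 expressed ones were lower and 0 higher, beside 2.76% and 1.53% of 22407 expressed probe sets of 1 gene. The 4 belonged to ZNRF1, ZNRF2 and RMND5A. Just past the 1.5-fold limit lay an RMND5A probe set at -0.62, and just short of it a ZNRF1 probe set at -0.54. The SD of the difference over all expressed probe sets of 1 gene was 0.27, or 0.29 in the dimmest tercile and 0.24 in the brightest. That SD is a spread between probe sets and not between cultures. In a bulk RNA sample, fewer cells in a given state and less RNA per cell cannot be told apart.

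**Figure D1:**
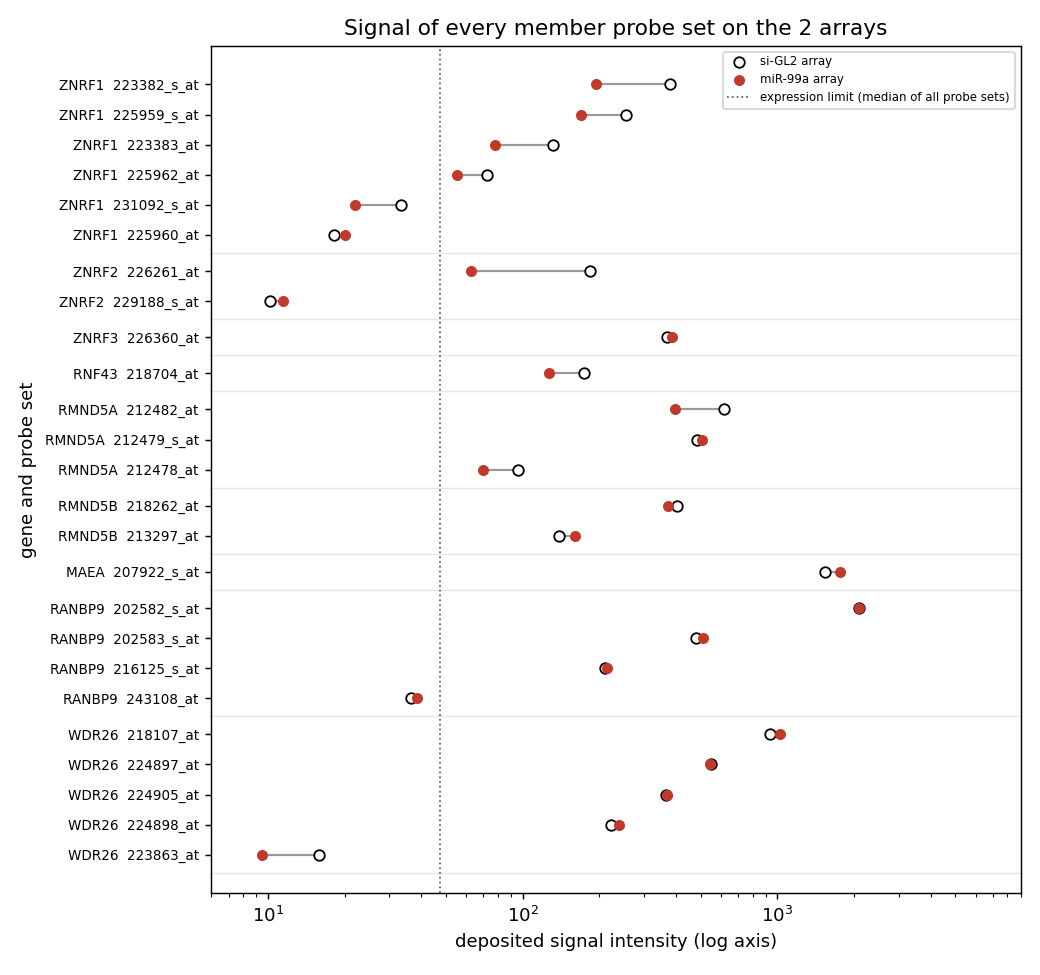
Deposited signal intensity (log axis) of each of the 25 member probe sets on the si-GL2 array (open circles) and the miR-99a array (filled circles), grouped by gene, with the expression limit as a dotted line. ZNRF2 226261_at has the widest gap, 62.5 against 184, while the circles of RANBP9 and of the expressed WDR26 probe sets nearly coincide.

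ZNRF2, a RING ligase of endosomal and lysosomal membranes linked to the sodium pump and to mTOR complex 1, was the lowest of the 9 genes. Its probe set 226261_at read 62.5 with miR-99a and 184 with si-GL2, a difference of -1.35 with the plain signal 2.95-fold lower after miR-99a. This was the 9th lowest difference among the 12218 expressed genes and the 13th lowest among the 22407 expressed probe sets. The second probe set, 229188_s_at, was far below the limit on either array, at 11.5 against 10.2 (0.07). The lower level of ZNRF2 thus rests on 1 probe set. The annotated pseudogene ZNRF2P1 was also below the limit, at 13.2 and 11.0.

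ZNRF1, the membrane-anchored RING ligase for which AKT1 and glutamine synthetase are reported substrates, had 4 expressed probe sets, and all 4 were below 0. The brightest, 223382_s_at, was 193 against 377, a difference of -0.91. It ranked 64th lowest among the expressed genes. Probe set 223383_at, designed from the same sequence record, was 78.2 against 131 (-0.65), which is also past 1.5-fold. Probe set 225959_s_at was 169 against 254, a ratio of 0.667 in plain signal that came to -0.54 after the addition of 16. The dimmest expressed one, 225962_at, was 55.0 against 72.4 (-0.31). The 4 probe sets therefore share a direction and span 0.60 in size. Of the 2 below the limit, 231092_s_at was 22.0 against 33.3 (-0.38) and 225960_at was 20.1 against 18.2 (0.08). As a mean over all 6 probe sets ZNRF1 was at -0.45, short of 1.5-fold.

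The paired Wnt regulators ZNRF3 and RNF43 gave different values. ZNRF3 was 384 against 369 by its 1 probe set, a difference of 0.05. RNF43 was 126 against 174, also by 1 probe set, a difference of -0.42 that falls short of 1.5-fold, ranking 877th lowest among the expressed genes. With 1 probe set each, neither value has a check within the arrays.

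**Figure D2:**
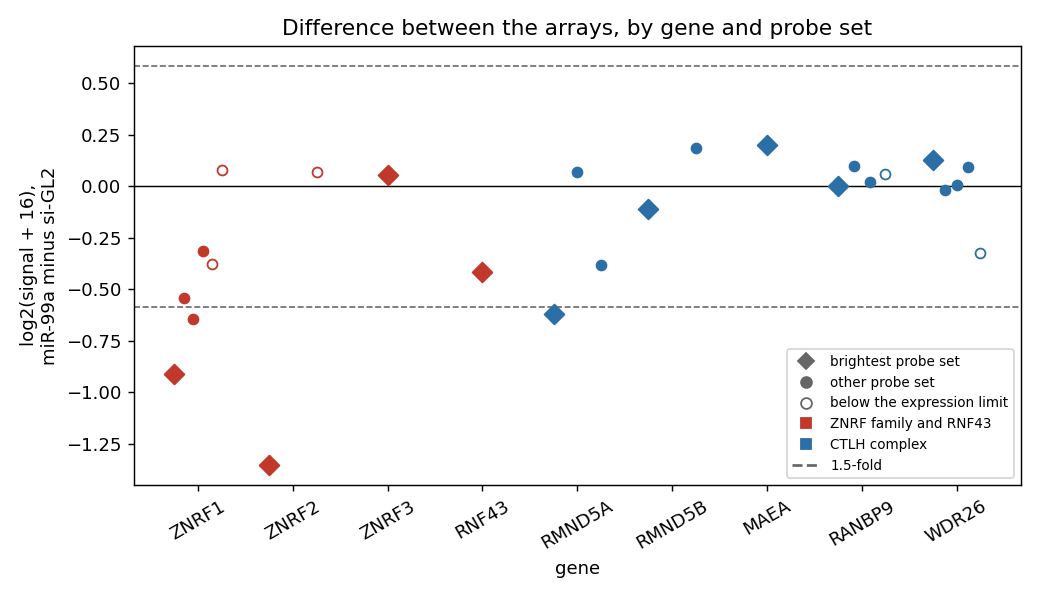
Difference of log2(signal + 16), miR-99a minus si-GL2, for every member probe set by gene; diamonds mark the brightest probe set, open symbols those below the expression limit, and dashed lines 1.5-fold. The expressed ZNRF1 probe sets lie between -0.91 and -0.31, those of RMND5A between -0.62 and 0.07, and those of RANBP9 and WDR26 between -0.02 and 0.13.

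In the CTLH complex, RMND5A was the 1 gene of 5 past 1.5-fold, and its probe sets disagreed. RMND5A and RMND5B are alternative RING partners of MAEA. RMND5A probe set 212482_at was 397 against 619, a difference of -0.62. Probe set 212479_s_at, of similar brightness, was 506 against 482 (0.07). The dimmer 212478_at was 70.1 against 96.0 (-0.38). The gap of 0.69 between the 2 brightest probe sets was wide: among 5842 genes with 2 expressed probe sets it was reached in 1.90%, and the median gap was 0.14. The call itself was narrow, since 212482_at came to -0.567 with 64 added in place of 16, to -0.568 after quantile normalization and to -0.577 once the running median of the difference over level had been subtracted, all short of 1.5-fold.

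RMND5B, the paralogue, stayed within 1.5-fold and its 2 probe sets had opposite signs. Probe set 218262_at was 373 against 403 (-0.11), and 213297_at was 160 against 139 (0.19). MAEA, the partner in the RING pair, was 1760 against 1530 by its 1 probe set (0.20), the highest difference of the 9 genes and inside the spread between probe sets.

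RANBP9, the scaffold of the complex, was alike on both arrays by all its probe sets. The brightest, 202582_s_at, was 2094 against 2091, a difference of 0.00 that ranged from -0.01 to 0.01 under 5 other scalings and pseudocounts. The other expressed ones were 512 against 478 (0.10) and 214 against 211 (0.02), and 243108_at below the limit was 38.6 against 36.4 (0.06). WDR26, a WD40-repeat subunit, had 4 expressed probe sets between -0.02 and 0.13. Its brightest, 218107_at, was 1026 against 937, and the dimmest expressed one, 224898_at, was 239 against 223 (0.09). The other 2 were 543 against 551 and 368 against 366. A probe set below the limit, 223863_at, stood at 9.47 against 15.9 (-0.33). In all, 11 of the 13 expressed CTLH probe sets were within 0.25 of 0, the exceptions being the 2 low ones of RMND5A. The SD over all expressed probe sets of 1 gene was 0.27, and their share within 0.25 was not counted. Nothing particular to the complex is read from the 11 of 13.

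**Figure D3:**
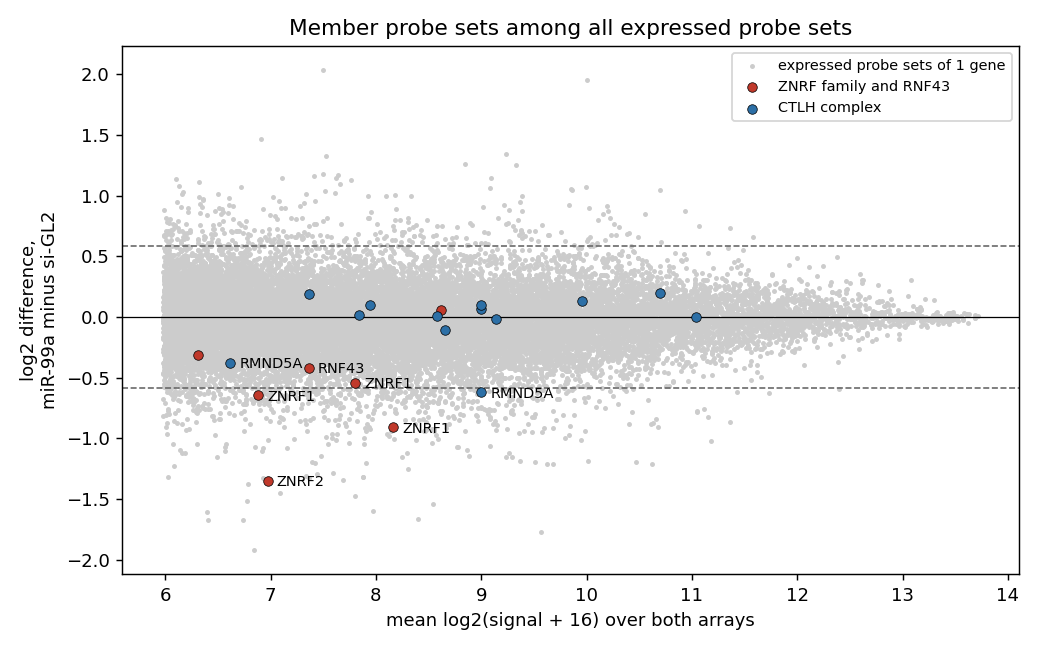
Difference, miR-99a minus si-GL2, against the mean log2(signal + 16) over both arrays for all 22407 expressed probe sets of 1 gene (grey), with the ZNRF family and RNF43 in red, the CTLH complex in blue and 1.5-fold as dashed lines. ZNRF2 at -1.35 lies at the lower edge of the cloud. Of 13 CTLH points, 11 are within 0.25 of 0, beside an SD of 0.27 over all expressed probe sets. The share of all expressed probe sets within 0.25 was not counted, and nothing particular to the complex is read from the 11.

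The partner genes of these ligases were described from 7 lists holding 64 genes, of which 60 were measured here and 46 were expressed. By their brightest probe sets 3 of the 46 were lower past 1.5-fold and 0 were higher, with a median of -0.04 beside -0.03 for all expressed genes. For all expressed genes the shares were the 2.90% and 1.21% given above. The 3 were FZD5, FZD7 and NKD1, all in the Wnt lists. EGFR, at 0.49, was the highest of the 46 genes.

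Of the other CTLH genes, 0 of 7 passed 1.5-fold and the median was -0.05. YPEL5, a small zinc-binding subunit, was the lowest at 452 against 627 (-0.46), and its second probe set was 432 against 558 (-0.36). ARMC8, an armadillo-repeat subunit, was next at -0.15, and its other expressed probe sets had mixed signs, between -0.23 and 0.14. GID8, a core subunit, was the highest at 0.10, with a second probe set at 0.22. It was followed by UBE2H, the E2 enzyme of the complex, at 0.02. The other expressed UBE2H probe sets ranged from -0.37 for the second-brightest to 0.36 for a dimmer one, 79.2 against 58.0. The list of 7 reported substrates and partners also held 0 past 1.5-fold, with a median of -0.21. Its lowest were the transcription factor HBP1, 662 against 850 (-0.35), and the mitotic kinase AURKA, 1361 against 1663 (-0.29); the second probe set of AURKA was at -0.32 and a far dimmer one at 0.07. The highest were the glycolytic enzyme PKM (0.18) and the mucin MUC1 (0.18, with a dimmer probe set at -0.08).

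Upstream of ZNRF3 and RNF43, R-spondin signal was scarce on both arrays. All 4 R-spondin genes and LGR5 were below the expression limit; RSPO1, for example, was 37.3 against 18.4. The R-spondin receptor LGR4 was 842 against 869 (-0.04), and LGR6 was 119 against 118 (0.00).

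Among 13 expressed Wnt receptors and Dishevelled genes, 2 were lower past 1.5-fold and 0 were higher, beside 2.90% and 1.21% of all expressed genes. The median was -0.11, and the list was written with earlier results of these data known. The receptor FZD5 was 401 against 758 (-0.89), while its other probe set, below the limit, was 36.5 against 37.2. FZD7 was 61.4 against 100.1, at -0.59 barely past the limit, and its second probe set was 50.3 against 62.3 (-0.24). FZD7 was short of it at -0.575 after quantile normalization, at -0.582 with the running median subtracted and at -0.39 with 64 added. The highest were FZD4 (0.24) and FZD1 (0.19, with a second probe set at -0.11). Of the 13 genes, 10 were below 0, beside 56.27% of all expressed genes. Among the 10 were FZD9 (-0.46) and the Dishevelled adaptors DVL2 (-0.26), DVL3 (-0.25) and DVL1 (-0.03). The second probe sets of DVL2 and DVL3 were at 0.24 and 0.13. The co-receptors LRP5 and LRP6 were at -0.01 and 0.00. FZD8 was not analysed here.

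Of 8 expressed genes that Wnt signalling commonly induces, 1 was lower past 1.5-fold and 0 were higher, with a median of -0.05. The shares of all expressed genes were 2.90% lower and 1.21% higher. NKD1, a feedback inhibitor of Dishevelled, was 37.8 against 65.5 (-0.60) and so stood on both sides of the expression limit; it came to -0.35 with 64 added, and its other probe sets, both below the limit, were at 0.22 and -0.80. The receptor gene TNFRSF19 was 1334 against 1800 (-0.43), with its other probe sets at -0.39 and -0.26. AXIN2, another feedback gene, was 74.2 against 82.1 (-0.12); a dimmer probe set under the limit was at 0.44. MYC (0.27) and the cyclin CCND1 (0.25) were highest. On the same scale, RNF43 was at -0.42 and ZNRF3 at 0.05.

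The other transmembrane RING ligases with a protease-associated domain, relatives of ZNRF3 and RNF43, held 4 expressed genes of 9, with 0 past 1.5-fold and a median of 0.08. These were RNF149 (0.20), RNF13 (0.17), RNF167 (-0.01) and RNF130 (-0.04). ZNRF4, the remaining gene of the ZNRF name, was below the limit at 23.9 against 40.5.

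Of 5 expressed E2 enzymes and reported substrates of ZNRF1 and ZNRF2, 0 passed 1.5-fold and the median was 0.05. EGFR, the growth factor receptor, was 1424 against 1006 (0.49); its other expressed probe sets lay at 0.27, 0.65 and 0.57, of which 513 against 321 was past 1.5-fold. GLUL, glutamine synthetase, was 2777 against 2448 (0.18), with its other expressed probe sets at 0.38 and 0.36. AKT1, the kinase, was at -0.02 and lowest, and UBE2N, the E2 enzyme for lysine-63 chains, was at 0.05; the second probe set of UBE2V2, its partner gene, was at -0.43 while the brightest was at 0.05.

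With 2 arrays, likeness to ZNRF2 could be measured only as a similar difference at a similar level. Among 2208 expressed genes within 0.5 of its mean log2 level, the nearest were EPDR1 at 60.9 against 177 (-1.33), MYBPC1 at 52.6 against 162 (-1.38) and CXCL16 at 88.3 against 245 (-1.32).

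Across the arrays as a whole, the median signals were 47.8 (miR-99a) and 47.4 (si-GL2), and Pearson's r over all 54675 probe sets was 0.988 on the log2 scale. Of 9 luminal prostate markers, 7 were measured here and all 7 were expressed, with 0 past 1.5-fold by their brightest probe sets; a dimmer probe set of KLK2 was 394 against 687 (-0.78). Of 18 markers of basal, leukocyte, endothelial and fibroblast cells, 15 were measured, 7 were expressed and 0 passed 1.5-fold by their brightest probe sets. Expressed were 0 of 3 basal markers, 2 of 3 leukocyte markers, 1 of 4 endothelial markers and 4 of 5 fibroblast markers. PTPRC was below the limit, while CD3E was 73.2 against 52.8 (0.37) and CSF1R 59.2 against 74.3 (-0.27). PECAM1 was 194 against 167 (0.20) by its brightest probe set. Its other probe sets were all below the limit, at 0.33, -0.71, 0.26 and 0.02. By their brightest probe sets, the fibroblast genes LUM and DCN were at 0.42 and 0.39, COL1A2 at 0.13 and COL1A1 at -0.02. That COL1A1 probe set was 230 against 233, and the other expressed ones of COL1A1 were at -0.14, 0.41 and 0.01. The other LUM probe set was below the limit at 2.58 against 4.36. A second expressed DCN probe set was 62.4 against 59.5 (0.05), and the rest, below the limit, lay between -0.69 and 0.92. By probe set, 1 of 10 endothelial and 8 of 18 fibroblast ones were expressed. The cells were a prostate cancer line, and the expression limit is the median of all probe sets, not a mark of detection. The source of the marker signals was not tested.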

How the data were processed

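Total RNA from 1 culture per group was extracted with Trizol, labelled with biotin and hybridised to Affymetrix arrays, per the labels' protocols. The deposited table holds, for each array, 1 linear signal intensity a probe set; how probes were summarised and arrays scaled is not given in the sources used here. With 1 array in each group, that number limits the precision.

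Signals were used as deposited and transformed to log2(signal + 16). Of 54675 probe sets, the platform annotation gave 41097 a single gene and 1801 several; the latter and the unnamed stayed out. All 9 member genes were found by Entrez ID, under the same symbol, in a RefSeq gene table of GRCh38.p14, and 0 of their probe sets were shared with another gene. A gene was represented by its brightest probe set. With 1 array per group no test was possible, and 1.5-fold is a rule of size. The members and lists were chosen with earlier results of these data known, and the lists were written from memory. Named genes are all members, each list's 2 highest and 2 lowest expressed genes and those past 1.5-fold, and the 3 expressed genes nearest to ZNRF2; FZD9, LRP5, LRP6, DVL1, DVL2, DVL3, AXIN2, UBE2N, the named marker genes, the named genes below the expression limit and values of further probe sets lie beyond this rule and were chosen after their values were seen. Alternatives were pseudocounts of 1 and 64, centring, quantile normalization, removal of a running median over 1001 probe sets, a 2-fold rule, no expression limit or one at the 75th percentile, no probe sets marked _x_ or _s_, the mean over probe sets and the second-brightest probe set. The functions were run on simulated data with planted differences well past 1.5-fold and a spread narrower than in these arrays. That checks the code only, not calls near the limit. Python 3.11.15, numpy 2.4.6, pandas 2.3.3 and matplotlib 3.10.9 were used.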

Additional observations from a re-analysis of the deposited data

How the results depend on the processing

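The 4 member probe sets lower past 1.5-fold became 2 with a pseudocount of 64, 1 under a 2-fold rule and 2 with the expression limit at the 75th percentile; under the other 6 alternatives for this count there were 3 or 4. The 0 higher stayed at 0 under all 9. Under the 5 other scalings and pseudocounts ZNRF2 lay between -1.54 and -0.97 and ZNRF1 between -0.96 and -0.78. The choice of probe set reversed 3 genes past 1.5-fold: by the second-brightest probe set ZNRF2 was at 0.068, RMND5A at 0.069 and the partner gene NKD1 at 0.22, those of ZNRF2 and NKD1 being below the expression limit. As means over all probe sets ZNRF2 was at -0.64 and RMND5A at -0.31. FZD5 was at -0.02 without _x_ and _s_ probe sets. Alternatives for the partner genes were added after the data were seen. The cause of these shifts was not tested. No paired analysis was possible because each group holds 1 array. The range of ZNRF2 over those 5 settings was the widest of the 9 genes.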
